A study of Mus musculus with 25 samples.

Results

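The genes described here are 36 genes of the kidney proximal tubule, listed by name: uptake receptors and transporters, enzymes of sugar and amino acid metabolism, brush border peptidases and a few others. A gene entered when a probe set of the array carried its symbol alone in the probe annotation, and its brightest such probe set, by the mean of the 25 arrays, stood for it. In this way 30 of the 36 were found, of 17097 genes named in the same way on the array. Lrp2, Slc34a1, Gatm, Acy3, Ggt1 and Acmsd have no such probe set in the annotation used and were not analysed here. Pck1, the gatekeeper enzyme of glucose synthesis, was too dim on its 1 named probe set to be tested. The 25 values lay between 3.37 and 5.08, with a mean under the limit of 4.60 below which genes were left out. Probe sets missing from the annotation were not read, so this describes the probe set and not the level of the transcript. The other 29 were tested among 11968 genes.

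The RNA came from a ribosome pull-down (translating ribosome affinity purification, TRAP). All mice, control and mutant, carried the Col1a1-eGFPL10a transgene, in which a collagen1α1 promoter and enhancer drives a ribosomal protein fused to a fluorescent tag, so that tagged ribosomes and the polysomal RNA on them can be recovered. WT mice carried the transgene alone, and KI mice carried it with the Actn4tm1.1Plk knock-in allele of alpha-actinin 4, an actin crosslinker of podocytes; the cross used Actn4+/tm1.1Plk mice, and the number of mutant alleles in a KI mouse is not stated in the labels. The strain is given as C57/129sv and the sex as unknown. There were 4 WT and 4 KI arrays at 2 weeks of age, 5 WT and 4 KI at 5 weeks, and 4 WT and 4 KI at 44 weeks. Whether each array came from its own mouse is not in the labels, so a p-value here measures only how these samples spread. Actn4 was not analysed here, which leaves the genotype labels unchecked on the targeted gene.

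The proximal tubule is the first segment after the glomerular filter. Its cells take back most of the filtered glucose, amino acids, bicarbonate, phosphate and protein through a brush border, make glucose, break down amino acids, and carry acyl and cysteine conjugates into the urine. Podocytes, the cells named in the labels, sit on the glomerular capillaries and are not known for these tasks, so transcripts of these genes are read here as tubule RNA within the pull-down. In such bulk RNA, fewer cells of a type and less RNA per cell cannot be told apart.

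The defining markers of both cell types were present on every array. Values are log2 signals, on which a step of 1 is 2-fold, and the level of one gene cannot be set against that of another. Of the podocyte markers, Podxl, the sialoprotein of the foot process surface, ranged from 12.53 to 13.00 over the 25 arrays, the transcription factor Wt1 from 11.94 to 12.54, Synpo from 12.10 to 12.70 and the slit diaphragm gene Nphs1 from 9.53 to 11.49. Of the tubule markers, the transcription factor Hnf4a ranged from 11.08 to 12.28, the endocytic receptor Cubn from 8.24 to 10.41 and the glucose transporter Slc5a2 from 7.31 to 8.87. The arrays hold no whole kidney RNA, and how far tubule RNA was depleted was not measured. The array medians spanned 0.17.

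Some arrays stood apart from their groups in these genes. WT 2-week array 1 was lowest of its group for 16 of 29 genes, and the mean of the 29 was 8.60 on it against 9.24, 9.52 and 9.66 on the other arrays. WT 44-week array 15 was highest of its group for 26 of 29, with a mean of 10.43 against 9.16, 9.42 and 9.70. WT 5-week arrays 7 and 9 were lowest for 15 and 8 genes, with means of 8.55 and 8.76 against 9.16, 9.30 and 9.59. In the KI groups the arrays lay closer: 9.64 to 10.07 at 2 weeks, 9.67 to 10.00 at 5 weeks and 9.86 to 10.30 at 44 weeks. By the same count, WT 44-week array 16 was lowest for 20 genes, KI 5-week array 25 for 21, KI 2-week array 20 for 19 and KI 44-week array 34 for 17. The main results that rest on an array are given with and without it.

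**Figure D1:**
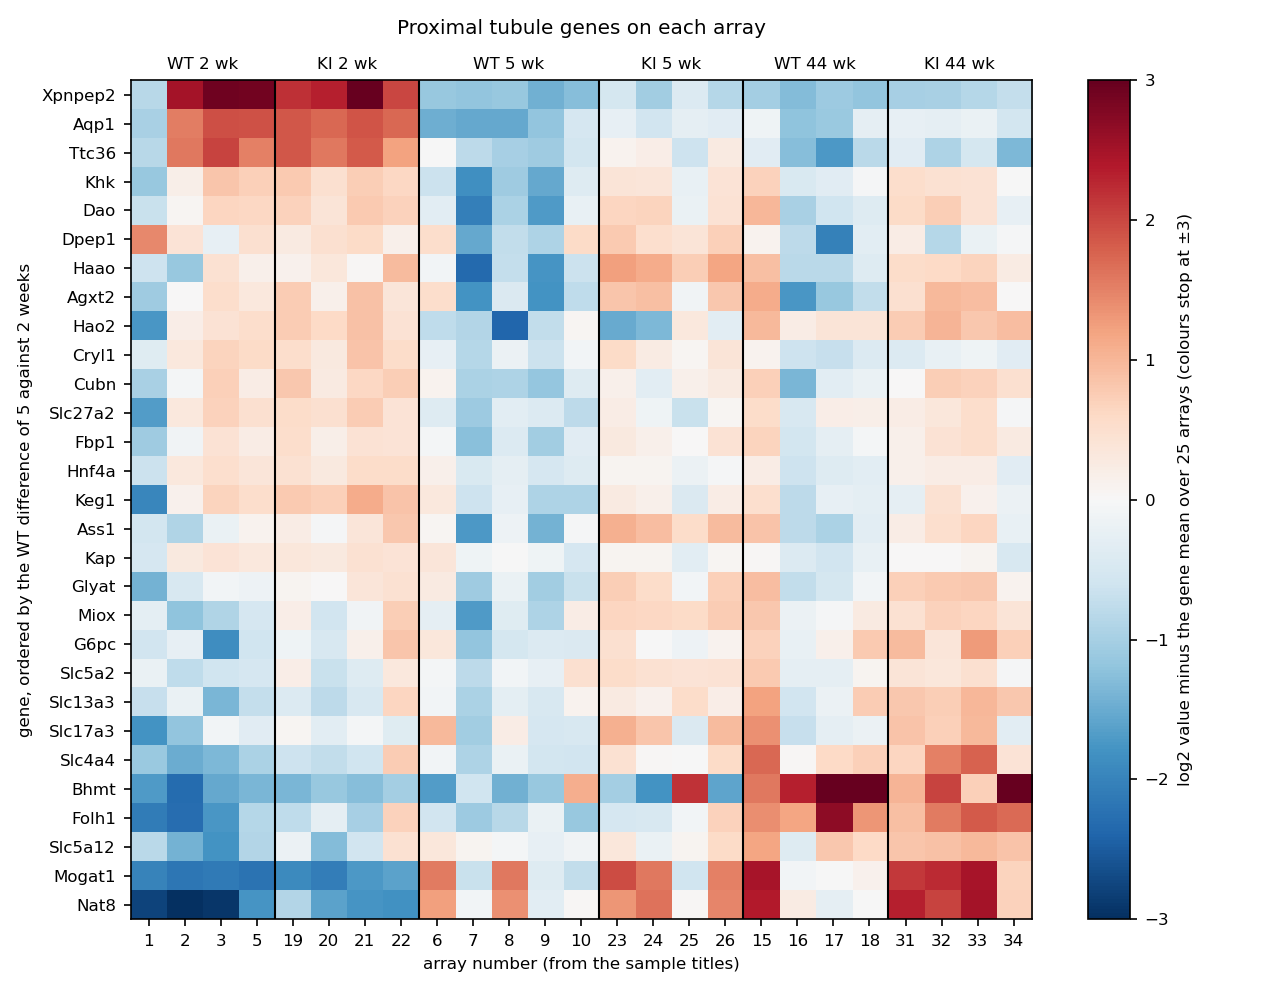
Each of the 29 tested proximal tubule genes on each of the 25 arrays, coloured by its log2 value minus its own mean over all arrays (scale stopped at 3 either way) and ordered by the WT difference of 5 against 2 weeks. WT 2-week array 1 lacks the high values that the other 2-week arrays show for Xpnpep2, Aqp1 and Ttc36, and WT 44-week array 15 is high for most genes.

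At 5 weeks Haao, Ass1, Agxt2, Dao, Khk, Miox, Glyat, Fbp1 and Cryl1 were more abundant in the pull-down of KI than of WT mice. These are 9 of the 29 genes and 0 fell, tested with limma on all arrays at a Benjamini-Hochberg adjusted p under 0.05; of all genes tested, 14.3% rose and 7.75% fell. By role, 5 of 8 genes of amino acid and acyl metabolism passed and 4 of 5 of sugar metabolism, with 0 of 8 for transport and uptake, 0 of 3 peptidases and 0 of 5 others. This split was read from the results and not tested, and Bhmt (0.20, adjusted p = 0.85), Hao2 (0.22, 0.739) and Keg1 (0.54, 0.312) of the first class did not pass. Slc27a2, counted under transport, both carries and activates fatty acids. The difference was above 0 for 29 of 29 genes, against 55.57% of all genes, and its median was 0.71 against 0.06. For 10 of the 29 every KI array lay above every WT array, against 7.09% of all genes; 1 of these, Xpnpep2, lay about the filter limit in WT (4.08 to 4.39).

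Haao, an enzyme of the tryptophan to NAD route, differed most. It read 8.98, 6.72, 8.34, 7.29 and 8.41 on WT arrays 6 to 10 and 10.29, 10.16, 9.80 and 10.25 on KI arrays 23 to 26. The groups did not overlap, and WT arrays 7 and 9 were the lowest. Haao rose by 2.18 ± 0.40 (log2 difference ± SE; limma adjusted p = 0.00257), or 4.53-fold.

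Ass1, which joins citrulline and aspartate on the way to arginine, read 10.90, 9.10, 10.67, 9.41 and 10.80 in WT and 11.90, 11.76, 11.38 and 11.78 in KI. Again all KI arrays lay above all WT arrays, and it rose by 1.53 ± 0.37 (adjusted p = 0.00752). Dao, the peroxisomal oxidase of D-amino acids, read 10.17, 8.43, 9.53, 8.79 and 10.26 in WT and 11.12, 11.14, 10.28 and 10.91 in KI. The lowest KI array, 25, was just above the highest WT array, 10, and Dao rose by 1.43 ± 0.39 (adjusted p = 0.0141).

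The remaining amino acid and acyl enzymes that passed overlapped between the groups. Agxt2, a mitochondrial aminotransferase that clears beta-aminoisobutyrate and methylated arginine, read 9.21, 6.89, 8.23, 6.87 and 7.91 in WT and 9.50, 9.57, 8.57 and 9.47 in KI. WT array 6 lay above KI array 25, and Agxt2 rose by 1.46 ± 0.49 (adjusted p = 0.0377). Glyat, which joins glycine to acyl groups for excretion, read 11.26, 9.92, 10.80, 9.95 and 10.34 in WT and 11.72, 11.54, 10.91 and 11.70 in KI, with the same 2 arrays overlapping, and rose by 1.02 ± 0.32 (adjusted p = 0.0303).

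Of the promoters of these genes, that of Agxt2 is shown because it is the only one, among members that passed a comparison, with the first of the searched HNF4 motifs. The 250 bases before its RefSeq start on GRCm38.p6, chr15:10358283-10358532, plus strand, read as follows, with CAAAGTCCA, the HNF4 tract, in capitals at bases -21 to -13 from the start. A second RefSeq start of Agxt2 holds the same letters at bases -67 to -59.
Agxt2: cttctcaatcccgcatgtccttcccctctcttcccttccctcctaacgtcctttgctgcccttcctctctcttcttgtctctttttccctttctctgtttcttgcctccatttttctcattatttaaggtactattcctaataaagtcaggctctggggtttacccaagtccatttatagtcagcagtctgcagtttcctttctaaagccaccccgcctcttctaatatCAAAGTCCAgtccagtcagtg
This motif, searched on both strands, was in 1 of the 27 members with a promoter in the table and in 0.384% of all 32851 promoters of that length. The 9 letters describe the sequence and do not show that a factor binds there.

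Of the 5 sugar enzymes tested 4 rose. Khk, which phosphorylates fructose, read 10.18, 8.98, 9.75, 9.28 and 10.42 in WT and 11.21, 11.17, 10.60 and 11.23 in KI, and rose by 1.33 ± 0.33 (adjusted p = 0.00887). Miox, which opens the inositol ring, read 11.43, 9.99, 11.33, 10.78 and 11.92 in WT and 12.35, 12.31, 12.28 and 12.46 in KI, and rose by 1.26 ± 0.30 (adjusted p = 0.00743). Neither gene had overlapping groups, and the KI arrays of Miox lay close together (SD 0.08, n = 4) while its WT arrays had an SD of 0.74 (n = 5). Fbp1, the bisphosphatase of glucose synthesis, rose by 0.84 ± 0.27 (adjusted p = 0.0303), from 10.61 to 11.79 in WT to 11.85 to 12.29 in KI. Cryl1, a gulonate dehydrogenase, rose by 0.71 ± 0.20 (adjusted p = 0.0174), from 9.33 to 10.11 to 10.25 to 10.75. G6pc, the catalytic subunit that releases free glucose, did not pass (0.55 ± 0.32, adjusted p = 0.215).

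No gene for transport or uptake passed. The differences of the 8 ran from 0.20 to 0.89, with a median of 0.68, close to that of all 29. The water channel Aqp1 (0.89 ± 0.40, adjusted p = 0.112), the bicarbonate cotransporter Slc4a4 (0.74 ± 0.33, adjusted p = 0.108), Cubn (0.73 ± 0.34, adjusted p = 0.119) and Slc5a2 (0.60 ± 0.24, adjusted p = 0.0693) stood nearest to the threshold. For Slc4a4 and the dicarboxylate carrier Slc13a3 the KI arrays nonetheless lay above all WT arrays. A p that misses the threshold does not show that transporters and enzymes respond differently, and that contrast was not tested.

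The peptidases Dpep1 (1.01 ± 0.42), Folh1 (0.68 ± 0.37) and Xpnpep2 (0.53 ± 0.48) did not pass, with adjusted p of 0.0818, 0.179 and 0.428. Among the others, the regulator Hnf4a differed by 0.28 ± 0.20 (adjusted p = 0.32) and Kap, the androgen-regulated kidney protein, by 0.05 ± 0.18 (adjusted p = 0.865). The other 3 probe sets of Hnf4a gave 0.67, 0.35 and 0.28 at this age.

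**Figure D2:**
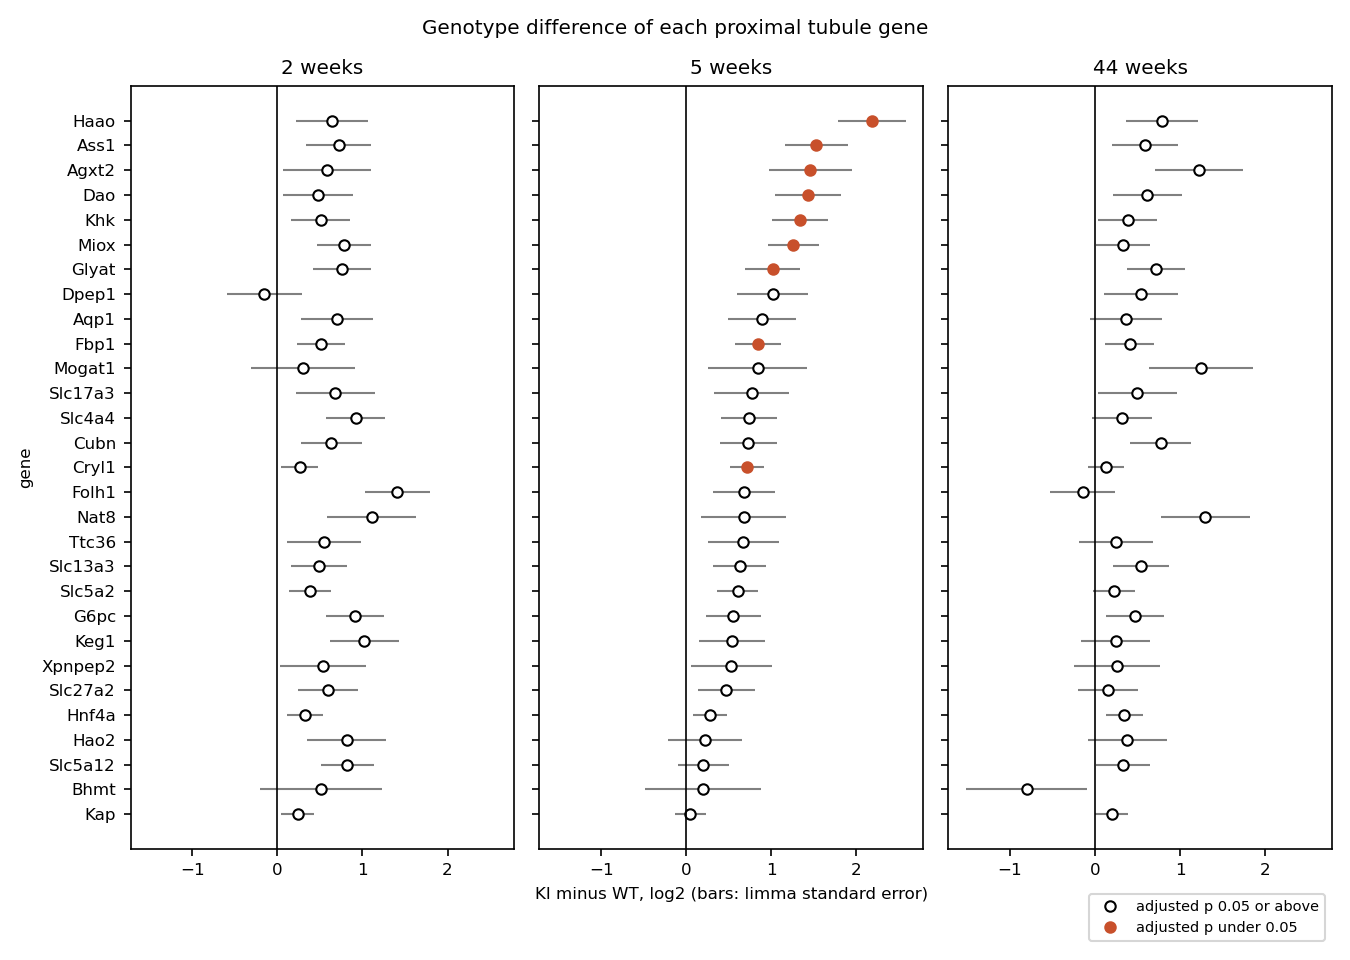
KI minus WT difference of each of the 29 genes at 2, 5 and 44 weeks (points, log2; bars, limma standard error; filled, adjusted p under 0.05). All 29 points lie right of 0 at 5 weeks, where 9 are filled, and none is filled at 2 or 44 weeks.

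For 58 further proximal tubule genes from a second list the median difference at 5 weeks was 0.64, against 0.06 for all genes. Of the 58, 11 rose and 0 fell, where 14.3% of all genes rose and 7.75% fell. Those with the smallest p were the phosphate transporter Slc34a3 (0.92 ± 0.24, adjusted p = 0.0113), the tyrosine breakdown enzyme Fah (1.11 ± 0.31, adjusted p = 0.0159), Lrpap1, the chaperone of the endocytic receptors (0.78 ± 0.23, adjusted p = 0.0196), and the brush border cadherin Cdhr5 (1.39 ± 0.40, adjusted p = 0.0197). Of 12 tubule injury genes listed, 11 had a probe set and 6 were bright enough to be tested. Of these 6, 3 rose, the keratins Krt18 and Krt19, by 1.76 and 0.78, and clusterin, Clu, by 0.79. Whether these rises have to do with tubule injury was not tested.

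The calls at 5 weeks depended on which arrays entered. Without WT arrays 7, 8 and 9 together, the WT 5-week arrays with the lowest fibroblast marker means (7.52 to 7.88), 0 of the 29 passed and Haao differed by 1.43 ± 0.43 (adjusted p = 0.229); leaving out array 7 alone, or KI array 23 alone, left 5. Haao, Ass1, Khk, Miox and Dao passed whichever single array was left out, with Haao between 1.87 and 2.44, whereas Fbp1, Glyat and Agxt2 each lost the call without WT 7, WT 9, KI 23, KI 24 or KI 26, and Cryl1 without WT 7 or KI 23.

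RNA of other cells moved with the same contrast, in which 14.3% of all genes rose and 7.75% fell. The mean of 28 loop, distal tubule and collecting duct markers came to 7.48 ± 0.33 (SD) over the 5 WT arrays and 8.11 ± 0.09 over the 4 KI arrays, and 11 of the 28 rose, among them the sodium channel subunit Scnn1b (1.13 ± 0.28, adjusted p = 0.00865). With that mean as a covariate 0 of the 29 proximal tubule genes passed, and Haao differed by 1.23 ± 0.39 (adjusted p = 0.154). The mean ran from 7.08 to 7.84 in WT and from 7.99 to 8.19 in KI, without overlap. At this age the covariate therefore cannot be told apart from genotype. Of 14 endothelial markers 7 rose, as did 4 of 9 mesangial and smooth muscle, 5 of 11 leukocyte, 2 of 7 fibroblast and 2 of 3 erythroid markers; of 17 podocyte markers 2 rose and 4 fell. On the actin control probes the excess of the 3′ over the 5′ signal ran from 1.47 to 1.63 in WT and from 0.99 to 1.33 in KI, without overlap, and with it as a covariate 4 of the 29 passed. The 18S 5′ signal was 8.74 ± 0.73 in WT and 10.30 ± 0.44 in KI (SD), with overlap. The part of these in the result was not tested further.

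**Figure D3:**
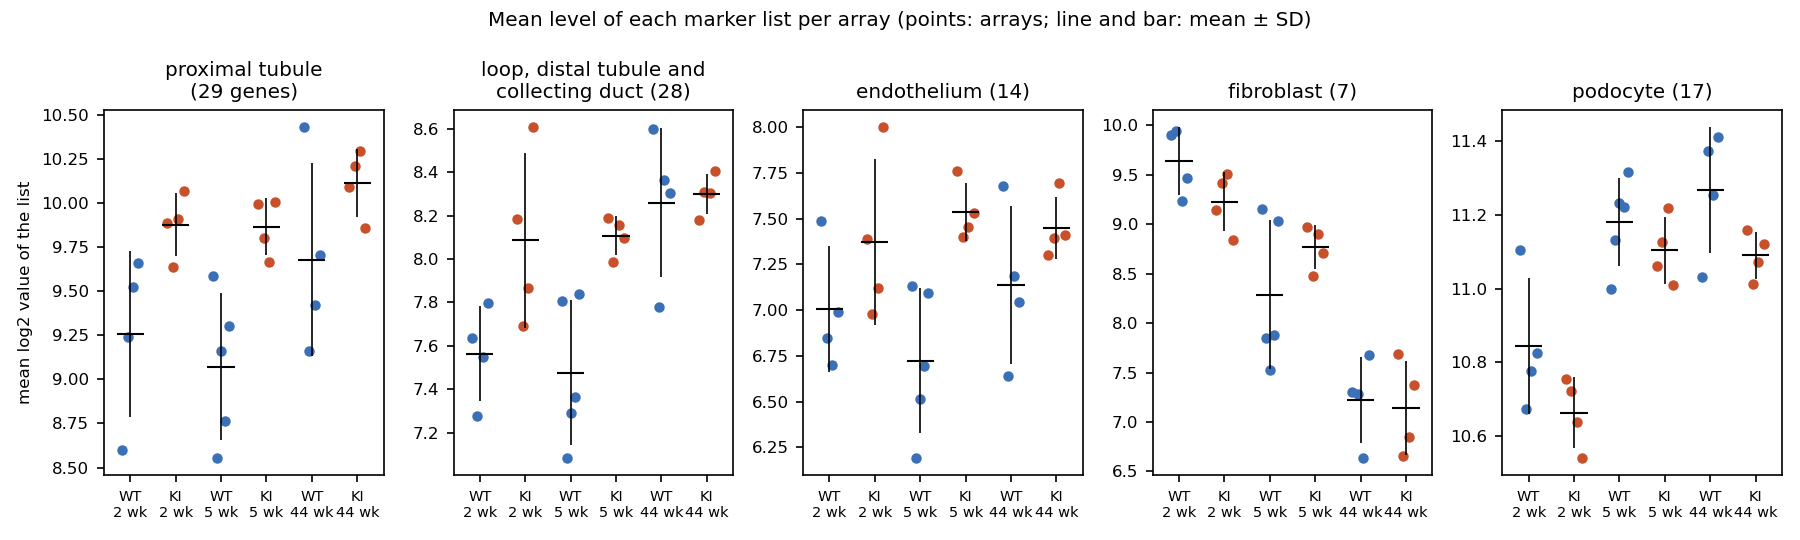
Mean log2 value of 5 marker lists on each array (points; blue WT, orange KI), with the group mean and SD. At 5 weeks the WT arrays lie lower and further apart than the KI arrays for the proximal tubule, the loop, distal tubule and collecting duct, and the endothelial lists, while the podocyte lists overlap.

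At 2 weeks the same genes were higher in KI on average, but no gene passed. With limma 0 of 29 rose or fell, as was so for 0% of all genes in either direction; 8 of the 29 had an unadjusted p under 0.05, against 613 of 11968. The difference was above 0 for 28 of 29 (44.69% of all genes) with a median of 0.60, against -0.02 for all genes. Every KI array lay above every WT array for 3 genes, Slc4a4, the glycine acyltransferase-like Keg1 and Glyat, against 1.16% of all genes. Folh1, which trims glutamate from peptides and folates, read 3.33 to 4.76 in WT, where its mean of 3.86 is under the filter limit, and 4.62 to 6.30 in KI, so its difference (1.41 ± 0.39, adjusted p = 0.893) starts from a dim level. On the Gapdh control probes the excess of the 3′ over the 5′ signal ran from 1.55 to 1.84 in WT and from 1.06 to 1.45 in KI, without overlap; with it as a covariate 0 passed and the median of the 29 was 0.43.

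The median rested in part on WT array 1. Without it the value was 0.34, and genes for which that array was far below the rest moved to near 0 or under it: Aqp1 from 0.70 to 0.00, Khk from 0.51 to 0.09, Ttc36 from 0.55 to -0.09 and Xpnpep2 from 0.54 to -0.37. Others kept their size, with Miox at 0.93, G6pc at 0.99, Slc5a12, a lactate transporter, at 0.96 and Folh1 at 1.29. At this age 28 of 28 loop, distal tubule and collecting duct markers were also above 0 (median 0.49, 0 passed), and with their mean as a covariate the median of the 29 genes was 0.15.

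At 44 weeks 0 of 29 genes passed, when 0.0167% of all genes rose and 0.00836% fell, and 4 of the 29 had an unadjusted p under 0.05 against 762 of all genes. The difference was above 0 for 27 of 29, with a median of 0.38 against 0.01, and groups lay apart for 1 gene, Xpnpep2, against 1.43% of all genes. Its 44-week values, 4.23 to 4.51 in WT and 4.52 to 4.82 in KI, lie about the filter limit of 4.60, so that separation supports nothing. Nat8, which acetylates cysteine conjugates, differed by 1.30 ± 0.53, Mogat1, a monoacylglycerol acyltransferase, by 1.25 ± 0.61 and Agxt2 by 1.22 ± 0.52 (adjusted p = 0.725, 0.8 and 0.735). Bhmt, which remethylates homocysteine with betaine, was lower in KI (-0.80 ± 0.71, adjusted p = 0.927), as was Folh1 (-0.15 ± 0.39). Without WT array 15, highest for most of these genes, the median was 0.59 and Nat8 (1.89 ± 0.47) and Agxt2 (1.81 ± 0.46) came to adjusted p of 0.0749 and 0.0804. Array 15 is also the 1 WT array of this age with high Y-linked signal, which 3 of 4 KI arrays have, and with that signal as a covariate Nat8 moved the other way, to 0.54, and Mogat1 to 0.31.

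Averaged over the 3 ages, 10 of the 29 rose in KI and 0 fell, against 3.99% and 1.33% of all genes. They were Haao (1.20 ± 0.24, adjusted p = 0.0177), Agxt2 (1.09), Nat8 (1.03), Ass1 (0.94), Dao (0.84), Glyat (0.83), Miox (0.79), Khk (0.74), Cubn (0.71) and Fbp1 (0.59), and 8 of them also rose at 5 weeks, whose arrays are part of this average. Haao alone passed whichever array was left out. The count fell to 1 without WT 44-week array 16 or KI 2-week array 22 and reached 19 without WT 44-week array 15. It was 0 without WT 5-week arrays 7, 8 and 9 and 0 with the loop and distal covariate. The shares of all genes above belong to the fit with all arrays, and those of these fits are not given here. Bhmt did not differ on average (-0.03 ± 0.41, adjusted p = 0.971).

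Whether the genotype difference changed with age was tested directly. From 2 to 5 weeks 0 of the 29 passed, with 0.0251% of all genes higher and 0% lower, and from 5 to 44 weeks 0 passed with 0% in either direction. At an unadjusted p under 0.05 these counts were 1 and 2 of 29, against 2242 and 2335 of all genes. Haao had the smallest p in both, its genotype difference being 1.54 ± 0.58 larger at 5 than at 2 weeks (adjusted p = 0.17) and then -1.39 ± 0.58 at 44 against 5 weeks (adjusted p = 0.198). The 9 genes that passed at 5 weeks are therefore not shown to differ less at the other ages.

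Some of the genes differed widely with age, in both directions. In WT from 2 to 5 weeks 4 of the 29 rose and 6 fell, against 12.2% and 21.7% of all genes, so the counts are near those of all genes. In KI 2 rose and 4 fell, against 5.4% and 8.29%. The 2 that rose and 3 that fell in both genotypes were Nat8 and Mogat1, and Xpnpep2, Aqp1 and Ttc36. Xpnpep2 passed the filter through its high 2-week values, so its place among the falls supports nothing. The WT and KI contrasts use different arrays but share 1 fitted spread.

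Among the peptidases, Xpnpep2, a membrane aminopeptidase that cuts before proline, read 4.68, 8.02, 8.45 and 8.43 on the WT 2-week arrays and 4.08 to 4.39 on those at 5 weeks. In KI it read 7.71, 7.85, 8.64 and 7.54 at 2 weeks and 4.99, 4.49, 5.12 and 4.68 at 5 weeks. Only array 1 among the 8 arrays of 2 weeks was near the later level, which lay about the filter limit of 4.60. Xpnpep2 fell by 3.11 in WT (SE 0.48, adjusted p = 8.3e-05; -4.01 ± 0.19 without array 1) and by 3.11 in KI (SE 0.50, adjusted p = 0.000439), and it stayed low at 44 weeks, at 4.23 to 4.51 in WT and 4.52 to 4.82 in KI. It passed the filter through its 2-week values, so its tests against 2 weeks are not independent of the filter.

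Aqp1 behaved alike but stayed above the filter limit on every array. It read 9.19, 11.70, 12.09 and 12.08 in WT at 2 weeks, with array 1 low again, and 8.70, 8.64, 8.63, 8.97 and 9.66 at 5 weeks. In KI it read 11.88 to 12.05 and then 9.59 to 9.93. It fell by 2.34 ± 0.40 in WT (adjusted p = 0.000216; -3.04 ± 0.23 without array 1) and by 2.15 ± 0.42 in KI (adjusted p = 0.00199). Ttc36, a tetratricopeptide protein, fell by 1.76 ± 0.41 in WT (adjusted p = 0.00263; -2.39 ± 0.30 without array 1) and 1.63 ± 0.43 in KI (adjusted p = 0.0155; 0.0595 without KI 5-week array 25).

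The metabolic enzymes Khk, Dao and Cryl1 fell in WT, by 1.24 ± 0.33 (adjusted p = 0.0062), 1.21 ± 0.39 (0.0198) and 0.70 ± 0.20 (0.0109). Without array 1 the differences were -1.67, -1.48 and -0.92. In KI they differed by -0.42 ± 0.35, -0.26 ± 0.41 and -0.24 ± 0.21 (adjusted p = 0.457, 0.725 and 0.485), and the genotype difference did not change past the threshold for any of them. Dao lost its call in WT without array 3, 5, 7 or 9, and Cryl1 without array 3. Of the other Cryl1 probe sets, that of mean 9.69 gave -0.79 in WT, but that of mean 7.05 gave 0.08. The dimmest, of mean 2.82 and under the filter limit, gave -0.16. Hao2, a peroxisomal hydroxyacid oxidase, fell in KI by 1.39 ± 0.46 (adjusted p = 0.049), a call that ended when any of 19 single arrays was left out, and differed by -0.79 ± 0.44 in WT (adjusted p = 0.172).

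Of the 4 genes that rose in WT, Nat8 read 5.89, 5.64, 5.77 and 6.92 in WT at 2 weeks and 9.90, 8.60, 10.04, 8.35 and 8.72 at 5 weeks, without overlap. It rose by 3.07 ± 0.50 in WT (adjusted p = 0.000135, 8.39-fold) and by 2.63 ± 0.53 in KI (adjusted p = 0.00231). Mogat1 read 6.04 to 6.26 in WT at 2 weeks and 9.83, 7.60, 9.84, 7.88 and 7.53 at 5 weeks, with arrays 6 and 8 well above the others. Those are the 2 WT 5-week arrays with high Y-linked signal. Mogat1 rose by 2.40 ± 0.58 (adjusted p = 0.00336) in WT and 2.94 ± 0.61 (adjusted p = 0.00323) in KI. Arrays with high Y-linked signal numbered 4 at 2 weeks and 2 at 5 weeks in WT, and 1 and 3 in KI. Age and that signal are therefore partly mixed in these contrasts. Slc5a12 rose by 1.23 ± 0.30 in WT (adjusted p = 0.00333), from 7.30 to 8.27 to 8.82 to 9.43, and Folh1 by 0.98 ± 0.37 (adjusted p = 0.0432), which did not hold without array 1, 2, 3, 6, 8 or 9. In KI Slc5a12 differed by 0.60 ± 0.31 (adjusted p = 0.218) and Folh1 by 0.25 ± 0.39 (adjusted p = 0.722).

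The second list fell more than it rose over these ages, as did all genes. Of its 58 genes 7 rose and 22 fell in WT, against 12.2% and 21.7% of all genes. In KI 6 rose and 16 fell, against 5.4% and 8.29%. These counts were not tested against those shares. Anpep, the brush border aminopeptidase N, fell by 3.02 ± 0.40 in WT (adjusted p = 2.1e-05) and by 2.20 ± 0.42 in KI (adjusted p = 0.00156). In WT Cdhr5 fell by 2.68, the scaffold Pdzk1 by 2.01 and Lrpap1 by 1.67, and in KI the organic anion transporter Slco4c1 fell by 3.32, the glucose transporter Slc5a1 by 2.34 and the cystine transporter subunit Slc3a1 by 1.85.

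The count of falls moved with the array that stood apart. Without WT 2-week array 1, 15 of the 29 passed between 2 and 5 weeks, 3 higher and 12 lower; Fbp1 (-0.80), Cubn (-0.95), Slc27a2 (-1.10), Hnf4a (-0.69), Keg1 (-0.93) and Hao2 (-1.32) were then among those lower. Markers of other cells differed over the same ages in WT, with 6 of 7 fibroblast, 7 of 9 mesangial and smooth muscle and 2 of 3 erythroid markers falling and 11 of 17 podocyte markers rising. With all arrays 21.7% of all genes fell and 12.2% rose. The shares without array 1 are not given here, so the 12 lower cannot be set against them. The actin 3′ over 5′ excess ran from 1.07 to 1.30 at 2 weeks and from 1.47 to 1.63 at 5 weeks in WT, without overlap, and with it as a covariate 8 of the same 10 genes passed. The part of the other cell markers was not tested.

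**Figure D4:**
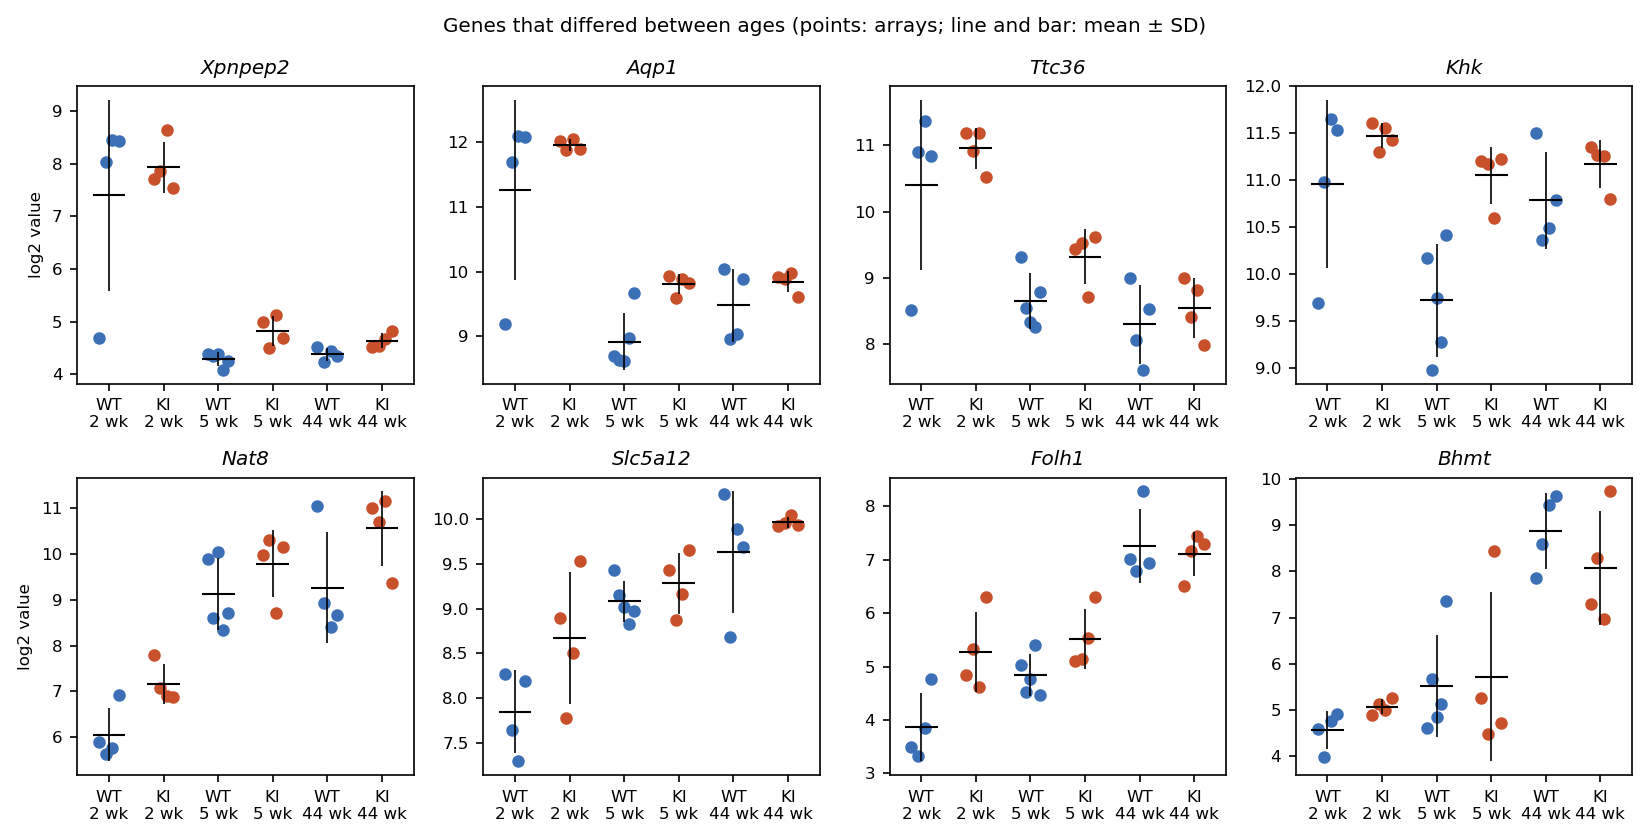
Log2 values of 8 proximal tubule genes on each array (points; blue WT, orange KI) in the 6 groups, with group means and SD. Xpnpep2, Aqp1 and Ttc36 are high at 2 weeks except on WT array 1, Nat8 is low at 2 weeks, Slc5a12 is low at 2 weeks in WT but overlaps between 2 and 5 weeks in KI, and Folh1 and Bhmt are highest at 44 weeks.

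From 5 to 44 weeks 5 of the 29 rose and 0 fell in WT, against 11.3% and 8.85% of all genes, and in KI 3 rose and 0 fell, against 8.11% and 8.64%. These counts of rises are near the share of all genes and are no result about the list. Bhmt, Folh1 and Hao2 rose in both genotypes.

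Bhmt read 4.60, 5.67, 4.83, 5.13 and 7.36 in WT at 5 weeks and 7.85, 8.60, 9.44 and 9.64 at 44 weeks. No array overlapped, although array 10 came close, and Bhmt rose by 3.36 ± 0.68 (adjusted p = 0.002, 10.3-fold). The lowest 5-week values lay about the filter limit of 4.60 in both genotypes, so the rise starts from a dim level. In KI it read 5.26, 4.47, 8.44 and 4.70 and then 7.30, 8.29, 6.98 and 9.75. Here array 25 of 5 weeks lay within the 44-week range, and Bhmt rose by 2.36 ± 0.71 (adjusted p = 0.0282). That call was lost without KI array 23, 24, 26, 32 or 34 (largest adjusted p 0.101), and the difference was 3.27 without array 25.

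The promoter of Bhmt is printed as the one among members that passed which holds the DR1 motif, CAAAGGTCA, bound by HNF4 and related nuclear receptors. It lies on the minus strand at chr13:93637759-93638008 (GRCm38.p6, RefSeq), and its 250 bases are given in the sense of the gene with the motif, at bases -50 to -42, in capitals.
Bhmt: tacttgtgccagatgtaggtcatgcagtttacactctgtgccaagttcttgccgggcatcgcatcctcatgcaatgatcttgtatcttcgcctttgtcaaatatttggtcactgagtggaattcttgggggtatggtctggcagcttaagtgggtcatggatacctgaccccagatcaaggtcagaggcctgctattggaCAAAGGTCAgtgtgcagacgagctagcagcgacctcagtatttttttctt
It was found in 1 of 27 members and 0.426% of all promoters. The third motif, GTTAATNAT of HNF1, was in G6pc alone among the members and in 0.737% of all promoters; G6pc passed no comparison. A missing match says only that these letters are not in the 250 bases.

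Folh1 read 5.03, 4.52, 4.77, 5.40 and 4.47 in WT at 5 weeks and 7.00, 6.79, 8.29 and 6.94 at 44 weeks. KI arrays went from 5.11, 5.14, 5.53 and 6.30 to 6.51, 7.16, 7.45 and 7.30. Neither genotype overlapped between the ages. Folh1 rose by 2.41 ± 0.37 in WT (adjusted p = 0.00015) and 1.59 ± 0.39 in KI (adjusted p = 0.00838), and passed whichever array was left out. Its level at 2 weeks in WT, 3.33 to 4.76, lay about or below the filter limit. The lowest WT values at 5 weeks also lay about that limit, so the WT rise starts from a dim level.

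Hao2 rose by 1.44 ± 0.44 in WT (adjusted p = 0.0257; 0.0774 without array 15, and lost also without array 8) and by 1.59 ± 0.46 in KI (adjusted p = 0.0228; up to 0.0802 without array 23, 24 or 32). Its KI values were 9.27, 9.44, 11.09 and 10.46 at 5 weeks and 11.55, 11.79, 11.58 and 11.71 at 44 weeks. It had stood at 11.23 to 11.67 in KI at 2 weeks, so the level of 5 weeks was the low one. Slc4a4, which returns bicarbonate to the blood, rose by 1.23 ± 0.33 in WT (adjusted p = 0.0126; 0.0601 without array 15) and Khk by 1.07 ± 0.33 (0.0272; 0.107 without array 15, and lost also without array 7, 9 or 18). In KI Slc4a4 differed by 0.81 ± 0.35 (adjusted p = 0.111) and Khk by 0.12 ± 0.35 (0.851).

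Of the 58 genes of the second list 6 rose and 0 fell in WT, against 11.3% and 8.85% of all genes. In KI 4 rose and 0 fell, against 8.11% and 8.64%. These counts of rises are near the shares of all genes and are no result about that list. Abcc4, an organic anion exporter, rose by 1.71 ± 0.36 in WT (adjusted p = 0.00266) and 2.07 ± 0.38 in KI (adjusted p = 0.00131). The fatty acid regulator Ppara rose by 1.56 ± 0.29 and 1.50 ± 0.30, and Cyp24a1, which inactivates vitamin D, by 2.87 ± 0.76 and 2.44 ± 0.80.

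Over these ages 13 of 28 loop, distal tubule and collecting duct markers also rose in WT, against 11.3% of all genes. With the mean of these markers as a covariate 1 of the 29 genes passed. The actin 3′ over 5′ excess was 0.78 to 1.24 at 44 weeks against 1.47 to 1.63 at 5 weeks, and the 18S 5′ signal 10.78 to 11.36 against 8.14 to 9.97, both without overlap. With the actin excess as a covariate 2 genes passed, and the part of the 18S signal was not tested. Without array 15 of 44 weeks 2 passed, without array 16 there were 9, and without WT 5-week arrays 7, 8 and 9 there was 1. The shares of all genes in these fits are not given here. In KI, where 3 of those 28 markers rose against 8.11% of all genes, the covariate left 4 genes, 3 of them the same. The count was 1 without KI array 23, 24 or 32. Nat8, which had risen by 5 weeks, differed by 0.14 ± 0.50 from 5 to 44 weeks in WT (adjusted p = 0.865), and by -0.45 ± 0.45 without array 15 (adjusted p = 0.532), so its sign rests on that array.

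Arrays fell apart in Y-linked signal, and some of the genes moved with it. The mean of Uty, Kdm5d and Eif2s3y was 7.26 or more on 14 arrays and 3.69 or less on the other 11. All 4 WT arrays of 2 weeks were high, with 1 of the 4 KI arrays. Among the 5-week arrays 2 of 5 from WT and 3 of 4 from KI were high, and at 44 weeks 1 WT and 3 KI arrays. The genes below were set against this signal after their values had been seen, and no test is given.

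At 5 weeks 6 of the 29 genes were higher on all 5 high-Y arrays than on all 4 low-Y arrays, over both genotypes: Mogat1, Nat8, Slc17a3, an organic anion transporter, Slc27a2, Keg1 and Kap. Mogat1 was 9.78 to 10.22 on the high-Y arrays and 7.53 to 7.88 on the low-Y arrays, a gap wider than the genotype difference of 0.84. At 44 weeks 14 genes were higher on the high-Y arrays and Bhmt was lower. At 2 weeks none was higher and 9 were lower, but there all 4 WT arrays were high and only KI array 20 was, so Y signal nearly followed genotype. How many of all genes split this way at each age was not computed, so these counts are no result about the list.

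With the Y-linked mean as a covariate the genotype differences of Mogat1 and Nat8 at 44 weeks were 0.31 ± 0.33 and 0.54 ± 0.33, in place of 1.25 and 1.30. Bhmt went from -0.80 to 0.09 ± 0.54. At 5 weeks 9 genes passed with that covariate, the same 9 as without it, and Haao was 1.94 ± 0.35 (adjusted p = 0.00245). From 5 to 44 weeks in WT 8 passed in place of 5. In the average 12 passed.

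**Figure D5:**
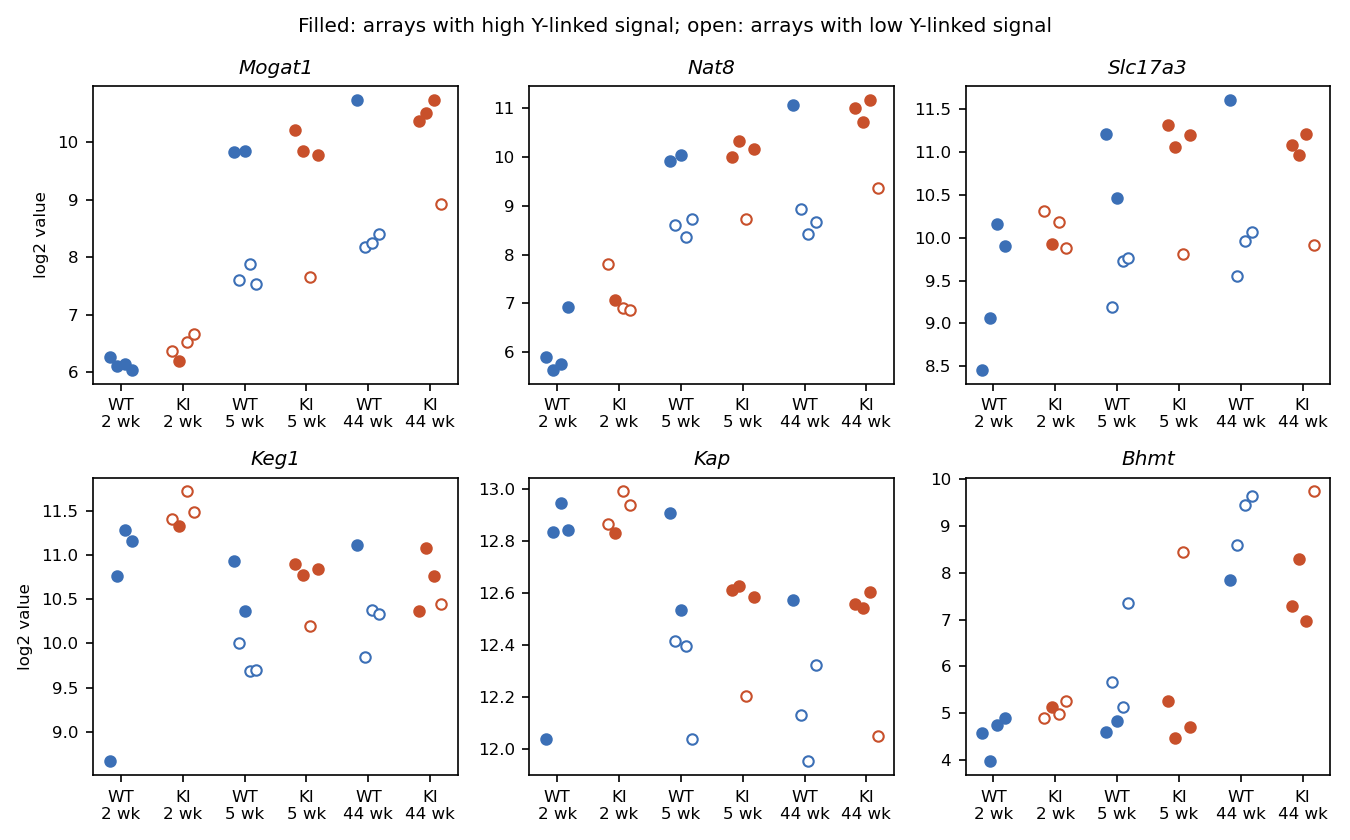
Log2 values of 6 proximal tubule genes on each array by group (blue WT, orange KI; filled, arrays with high Y-linked signal; open, arrays with low Y-linked signal). At 5 and 44 weeks the filled points of Mogat1, Nat8, Slc17a3 and Kap lie above the open ones, and at 44 weeks those of Bhmt lie below.

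The 9 genes that passed in none of the comparisons were Dpep1, G6pc, Hnf4a, Kap, Keg1, Slc13a3, Slc17a3, Slc27a2 and Slc5a2. Their genotype differences at 5 weeks ran from 0.05 for Kap to 1.01 for Dpep1, whose WT arrays spread from 7.20 to 9.31.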

How the data were processed

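Ribosome-bound RNA of 25 samples was measured on Affymetrix PM arrays after 1 round of NuGEN WT-Ovation amplification and labelling with the Encore Biotin Module, per the labels' protocols. The table deposited by the authors holds log2 values from 1.86 to 13.62; the summarization and normalization are not given in the sources used here. Their scale was read from the values, which were not altered. No pair of arrays was identical.

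Of 45141 probe sets 28898 had 1 gene symbol in the annotation, 551 had several and 15692 were not listed; 99.28% of Entrez identifiers matched RefSeq. The probe set with the highest mean stood for each of 17097 genes (7180 had several), and the dimmest 30% of genes, by their mean over all arrays, were left out. Because this filter uses the mean over all arrays, Xpnpep2, Folh1 and Bhmt passed it while lying under its limit in some groups. A limma model (version 3.58.1, R 4.3.3) of the 6 group means was fitted to all 25 arrays (19 residual and 3.05 prior degrees of freedom), with Benjamini-Hochberg adjustment over 11968 genes and a threshold of 0.05. The script was tested on simulated data.

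The members and the 10 other lists were chosen with earlier results of these data known. By the rule for named genes, any member may be named in any comparison, and of the other lists up to 4 genes a comparison, those that passed with the smallest p. The Y-linked description was chosen after its values were seen. Alternatives were another normalization or filter, all probe sets averaged, another prior, array weights, fewer arrays, covariates and each array left out. The labels name no batch. Promoters were searched in the 250 bases before RefSeq starts (GRCm38.p6).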

Additional observations from a re-analysis of the deposited data

Results flagged for a closer look

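In groups of 4 or 5 arrays, each gene's highest and lowest array was set against the rest by Dixon's criterion. Of 174 groups tested 16 held an array far from the others, and most came from 3 arrays. In a single test chance gives about 1 in 20. The genes share the same arrays, so the tests are not independent and no excess over chance can be read from the count. The values are given without explanation.

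WT 2-week array 1 was far below its group for 6 genes. Aqp1 was at 9.19 on it against 11.70 to 12.09 on the others, Hao2 at 9.04 against 10.99 to 11.30, and Slc27a2 at 9.83 against 11.84 to 12.21. Hnf4a was at 11.08 against 12.05 to 12.24, Kap at 12.04 against 12.83 to 12.95, and Xpnpep2 at 4.68 against 8.02 to 8.45. The same array was highest of its group for 5 of the 29 genes, so it was not low throughout.

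KI 5-week array 25, the only array of its group with low Y-linked signal, was far below for 4 genes. Agxt2 was at 8.57 against 9.47 to 9.57, Kap at 12.21 against 12.59 to 12.63, Khk at 10.60 against 11.17 to 11.23, and Slc17a3 at 9.81 against 11.06 to 11.31.

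KI 44-week array 34, again the only one of its group with low Y-linked signal, was far below for Glyat (11.10 against 11.71 to 11.81), Hnf4a (11.38 against 11.89 to 11.96) and Kap (12.05 against 12.54 to 12.61). In WT at 44 weeks, Mogat1 was at 10.74 on array 15, the only array of that group with high Y-linked signal, against 8.17 to 8.40. Folh1 was at 8.29 on WT 44-week array 17 against 6.79 to 7.00, and Slc4a4 at 9.69 on KI 2-week array 22 against 8.20 to 8.34.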

How the results depend on the processing

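Of the 43 calls of single genes, none reversed under any alternative; 42 kept their side of the threshold under quantile normalization, 43 after centring arrays on their medians, 40 with the Y-linked covariate, 31 with the actin covariate, 20 with the loop and distal covariate and 15 without WT 5-week arrays 7, 8 and 9. The counts of genes passed moved as follows. In KI against WT at 5 weeks (9) they were 15 with array weights, 3 in a fit of only the arrays compared, 4 with the actin covariate, and 0 with the loop covariate or without arrays 7, 8 and 9. At 44 weeks array weights gave 2, and in the average (10) they gave 22, the loop covariate 0 and the loss of arrays 7, 8 and 9 0. In WT from 2 to 5 weeks (10) array weights gave 20 and the loss of arrays 7, 8 and 9 gave 5. In WT from 5 to 44 weeks (5) the counts were 10 with array weights, 2 with only the arrays compared, 8 with the Y-linked, 1 with the loop and 2 with the actin covariate, and 1 without arrays 7, 8 and 9. In KI from 2 to 5 weeks (6) array weights and only the arrays compared each gave 12. In KI from 5 to 44 weeks (3) the counts were 6 with array weights and 8 with only the arrays compared. With 50% of genes filtered the count there was 1, as Bhmt and Folh1 were then too dim to be tested. For the change of the genotype difference array weights gave 6 from 2 to 5 weeks and 1 from 5 to 44 weeks. The cause of the other moves was not tested. Shares of all genes under each alternative are not given here, so these counts are no result about the list.

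Leaving out each array in turn gave 0 to 0 genes in KI against WT at 2 weeks, 5 to 11 at 5 weeks, 0 to 0 at 44 weeks and 1 to 19 in the average. It gave 8 to 15 in WT and 5 to 8 in KI from 2 to 5 weeks, 2 to 9 in WT and 1 to 4 in KI from 5 to 44 weeks, and 0 to 0 for both changes of the genotype difference. No paired analysis was possible because the replicate numbers are array numbers that no 2 groups share. A fit of only the arrays compared was not run for the average, which uses all arrays. With 4 or 5 arrays a group, the number of arrays limits the precision.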

Other observations

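Further probe sets of the same genes gave another reading of 8 members from the same arrays, without a test. For Hnf4a the brightest probe set gave KI minus WT values of 0.32, 0.28 and 0.35 at the ages of 2, 5 and 44 weeks, while the next brightest gave 0.82, 0.67 and 0.46. For Cubn the values were 0.63, 0.73 and 0.77 on the brightest and 0.79, 0.88 and 0.83 on the other. For Slc5a12 the WT difference of 44 against 5 weeks was 0.55 on the brightest probe set and 1.55 on the other. For Ass1 at 44 weeks the brightest gave 0.58 and the other, whose mean of 4.43 lay under the filter limit, gave -0.33.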
